A study of Mus musculus with 40 samples.

Results

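The 10 genes described here encode the ligand TGF-β1 (Tgfb1), the receptors for TGF-β (Tgfbr1, Tgfbr2 and Tgfbr3), the SMAD proteins that carry or restrain its signal (Smad2, Smad3, Smad4 and Smad7) and the SMAD-binding repressors Ski and Skil. They were taken by gene symbol from an RNA-seq matrix of mouse CD4+ T cells, and all 10 were found among its 21950 genes. The rule is a list of symbols with no threshold on a measured value, though the list was drawn up with earlier results of these data known. All 10 passed the filter on low values.

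TGF-β is secreted in a latent form and, once released, binds the type II receptor kinase TGFBR2, which recruits and phosphorylates the type I receptor kinase TGFBR1. The activated type I receptor phosphorylates SMAD2 and SMAD3, which join SMAD4, enter the nucleus and regulate transcription, while SMAD7 acts at the receptors as an inhibitor and SKI and SKIL (SnoN) repress SMAD target genes. In T cells the pathway restrains activation and, with IL-2, induces Foxp3, the transcription factor that defines regulatory T cells (Tregs).

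The study compared conventional T cells (Tconvs), thymus-derived Tregs (tTregs, labelled nTreg by the submitters) and Tregs induced in culture (iTregs) for how stable the Treg state is after T cell receptor stimulation. Tconvs and tTregs were sorted from the spleens of Foxp3-GFP reporter mice on a C57BL/6 background, aged 2 to 4 months, and were measured at rest or after activation. iTregs were made from naive Foxp3- CD4+ T cells of 6-week-old mice of the reporter strain by 4 days of anti-CD3 (0.5 µg/ml), anti-CD28 (1 µg/ml), IL-2 (200 U/ml) and 2 ng/ml human TGF-β, were sorted on the Foxp3 reporter and rested for 1 day with IL-2. They were measured at rest, after restimulation through CD3 and CD28, and after restimulation with an ORAI inhibitor, which blocks the calcium channel behind store-operated calcium entry, or with cyclosporin A (CsA), which blocks calcineurin and so NFAT. Each of the 8 groups had 3 libraries, 24 in all. Only iTregs had been exposed to added TGF-β and to days of culture before the resting measurement, so in the comparisons of iTregs with the other cells the cell type, the TGF-β, the culture and the age of the mice cannot be told apart. How long Tconvs and tTregs were activated is not given in the sources used here.

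The libraries held 5256800 to 15685234 reads, and the 10 genes had between 44 reads (Tgfb1) and 4416 reads (Skil) in a library. Foxp3 averaged 7537 and 7312 normalized counts in resting and activated tTregs, 1280 in resting iTregs, and 10.4 and 33.8 in resting and activated Tconvs, in the order the labels imply. Cd3e and Cd4 were high in every group. Of the markers of other cells, the B cell gene Ms4a1 and the platelet genes Pf4 and Ppbp were at 0 in all groups, though the 4 B cell genes summed to 16 to 136 normalized counts, highest in tTregs through Cd79b, and the 4 platelet genes to 0 to 31.9. The 2 CD8 genes summed to 99 to 236, the 3 erythroid genes to 0.708 to 13.6, and the 3 NK cell genes summed to 19.3 to 30.9 normalized counts in resting Tconvs, at most 3.54 in activated Tconvs and 0 elsewhere, and the 6 myeloid genes summed to 15.1 to 121. The 3 stromal genes summed to 359 to 3129, nearly all of it Pecam1, which T cells also express, and it was highest in resting Tconvs. The part of other cells in the results below was not tested beyond these values. These are bulk libraries, in which fewer cells of a type and less RNA per cell cannot be told apart.

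The promoters of Tgfbr1, Tgfbr2 and Smad3 are shown because both receptor mRNAs fell in restimulated iTregs, and those of Tgfbr2 and Smad3 in activated Tconvs. Each run is the 250 bases upstream of the RefSeq transcription start (GRCm38.p6), 5′ to 3′ on the gene's strand, and capitals mark matches on either strand to GGAAA (the core bound by NFAT), CAGAC (the core bound by SMADs) and GGGCGG (a GC box).
Tgfbr1: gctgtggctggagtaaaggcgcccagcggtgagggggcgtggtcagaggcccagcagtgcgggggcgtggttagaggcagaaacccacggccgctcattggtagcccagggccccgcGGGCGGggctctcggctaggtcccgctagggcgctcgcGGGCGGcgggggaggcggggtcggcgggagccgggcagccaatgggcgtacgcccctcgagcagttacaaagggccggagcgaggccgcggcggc
Tgfbr2: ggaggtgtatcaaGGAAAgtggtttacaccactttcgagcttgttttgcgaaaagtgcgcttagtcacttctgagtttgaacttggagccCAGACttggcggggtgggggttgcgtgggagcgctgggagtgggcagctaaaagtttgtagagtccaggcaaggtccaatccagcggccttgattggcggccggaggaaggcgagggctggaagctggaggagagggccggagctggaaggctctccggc
Smad3: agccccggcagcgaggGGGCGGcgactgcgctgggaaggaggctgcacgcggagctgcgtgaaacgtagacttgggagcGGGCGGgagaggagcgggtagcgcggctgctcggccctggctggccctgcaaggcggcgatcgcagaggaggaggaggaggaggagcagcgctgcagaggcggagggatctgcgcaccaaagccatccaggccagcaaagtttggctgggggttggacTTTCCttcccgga

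The Tgfbr1 window is chr4:47352972-47353221 on the plus strand and holds 2 GGGCGG matches. The Tgfbr2 window is chr9:116175364-116175613 on the minus strand and holds 1 GGAAA and 1 CAGAC match, and the Smad3 window is chr9:63757995-63758244 on the minus strand with 1 GGAAA and 2 GGGCGG matches. None of the marked matches overlap. Such short motifs are common: of 32851 upstream windows of the same length in the RefSeq table, 55.6% held GGAAA, 42.2% held CAGAC and 32.7% held GGGCGG on either strand. Windows were read for 5 of the 10 genes, and the windows of Tgfb1 and Ski each held 5 GGGCGG matches and no GGAAA or CAGAC. Windows on chromosome 18, where Smad2, Smad4 and Smad7 lie, were not used. The lack of a window for these genes therefore does not mean that the table had no entry for them. A second listed start of Tgfbr1 held 1 CAGAC match.

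The levels below are normalized read counts, meaning reads divided by a size factor per library, and are given in replicate order. Tgfb1 was the lowest of the 10 genes per length of transcript in resting Tconvs. Across the groups, its own level was highest in tTregs. It stood at 136, 149 and 138 in resting tTregs and at 198, 146 and 182 in activated tTregs. In resting Tconvs it stood at 61.7, 51.6 and 38.6, in activated Tconvs at 64.6, 55.2 and 58.0, and in the 12 iTreg libraries between 76.6 and 112. The tTreg libraries therefore lay above all iTreg libraries and these above all Tconv libraries, with no overlap between the 3 cell types.

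Tgfbr1, the type I receptor, followed the same rank for tTregs. Its counts were 825, 919 and 977 in resting tTregs and 1037, 1078 and 1173 in activated tTregs, and every other library lay at or below 580. Resting iTregs (491, 529 and 580) and activated Tconvs (512, 536 and 517) overlapped, and resting Tconvs lay lower at 422, 359 and 435.

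Tgfbr2, the ligand-binding type II receptor, had the widest range of the 10 genes, with 9.65-fold between its highest and lowest group means. Resting Tconvs stood at 2426, 2416 and 2437, far from all other libraries. Resting tTregs followed at 917, 799 and 861, activated Tconvs at 740, 750 and 712 and activated tTregs at 648, 744 and 638. Resting iTregs were lower again, at 368, 353 and 417, and restimulated iTregs lowest, at 235, 254 and 265. Only activated Tconvs and activated tTregs, and the iTregs under the ORAI inhibitor and under CsA, overlapped with their neighbour in this order.

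As a result the balance of the receptor pair differed between cells. Per kb of transcript, the ratio of Tgfbr2 to Tgfbr1 was 4.29 ± 0.43 (SD, n = 3) in resting Tconvs and 1.00 ± 0.025 in activated Tconvs. In tTregs it was 0.679 ± 0.097 at rest and 0.441 ± 0.052 after activation, and in the 4 iTreg groups its means ran from 0.506 to 0.643. Every resting Tconv library thus had more type II than type I receptor mRNA per length. On this scale activated Tconvs had them about equal, and in every library of the Treg groups Tgfbr1 exceeded Tgfbr2. This order depends on the lengths, which are of the longest coding transcripts. In plain normalized counts activated Tconvs averaged 734 for Tgfbr2 and 522 for Tgfbr1. The Treg group means kept their order in plain counts, but not every Treg library did.

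Tgfbr3, or betaglycan, a co-receptor that presents ligand to TGFBR2, had the opposite pattern to Tgfbr1 in tTregs. It stood at 127, 196 and 153 in resting and at 125, 80.4 and 129 in activated tTregs. Resting Tconvs held 780, 728 and 768, and activated Tconvs 682, 742 and 750. Resting iTregs lay between these cells at 516, 568 and 568, and restimulated iTregs above all others at 886, 944 and 974. The lowest value outside tTregs was thus 516, more than the highest tTreg value of 196.

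**Figure D1:**
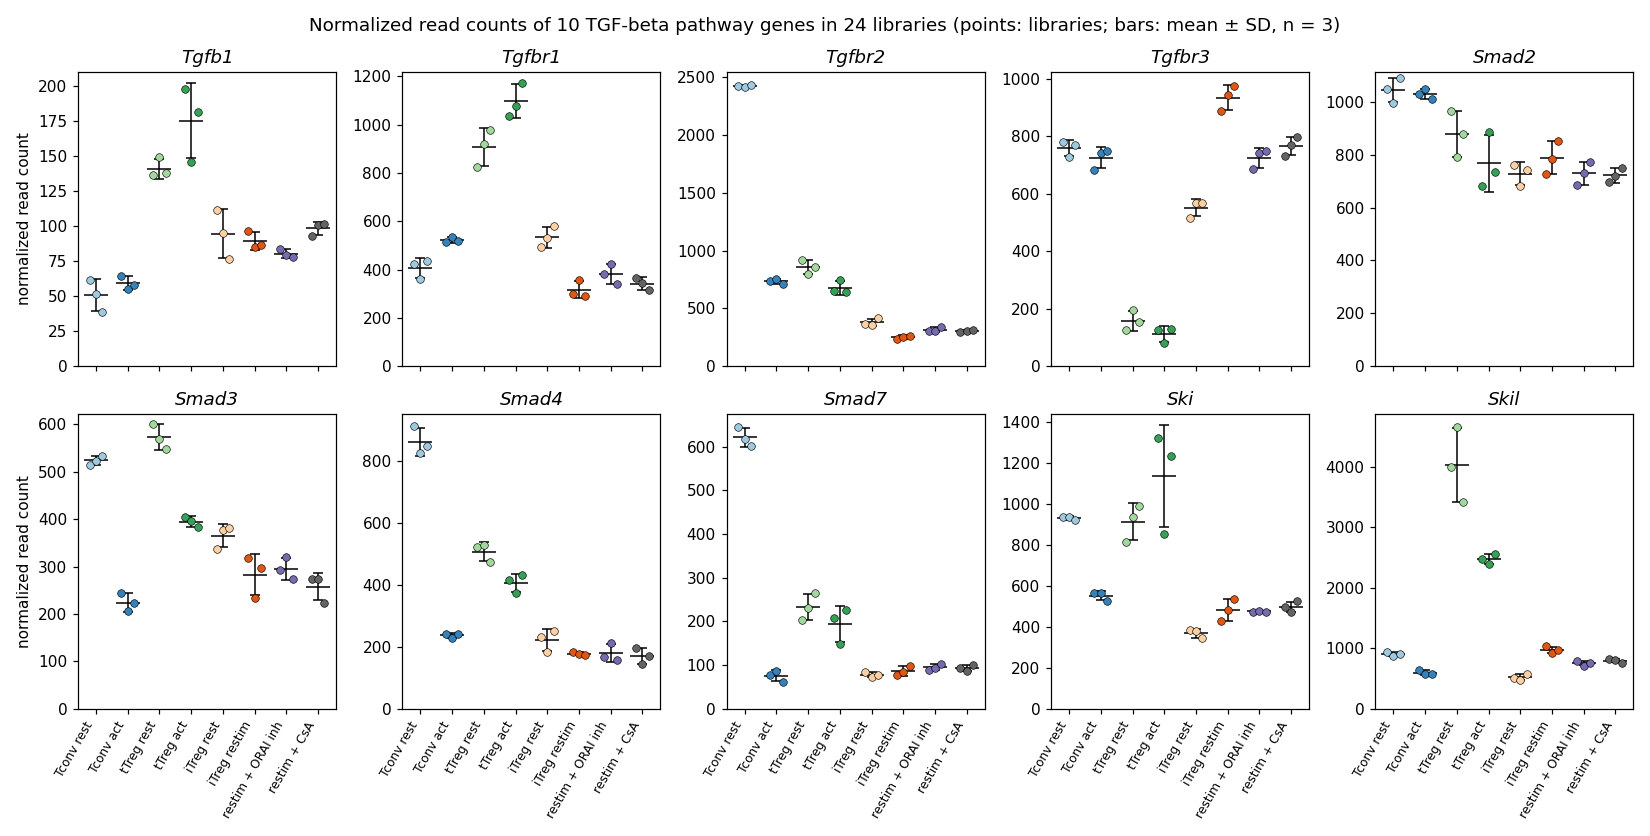
Normalized read counts (y axis, from 0, own scale per gene) of the 10 genes in the 8 groups (x axis), with points for libraries and bars for mean ± SD (n = 3). Tgfbr2, Smad4 and Smad7 stand highest in the 3 resting Tconv libraries, Skil and Tgfbr1 in tTregs, and Tgfbr3 lowest in tTregs.

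Among the SMADs, Smad2 varied least. Its group means ran from 722 to 1045 normalized counts, a 1.45-fold range, and all its neighbouring groups but activated Tconvs and resting tTregs overlapped. Smad3, the other receptor-regulated SMAD, was highest at 601, 570 and 548 in resting tTregs and 515, 523 and 534 in resting Tconvs, and lowest at 244, 205 and 222 in activated Tconvs. The ratio of Smad2 to Smad3 per kb was 1.25 ± 0.050 in resting Tconvs and 2.91 ± 0.28 in activated Tconvs, where Smad3 was low and Smad2 was not, against 0.965 ± 0.077 and 1.22 ± 0.18 in resting and activated tTregs.

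Smad4, the shared partner of the receptor-regulated SMADs, stood at 912, 824 and 849 in resting Tconvs and 240, 228 and 243 in activated Tconvs. In tTregs it stood at 522, 528 and 473 at rest and 416, 373 and 430 after activation. The 12 iTreg libraries lay between 146 and 250, so activated Tconvs fell within the iTreg range while tTregs did not.

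Smad7, the inhibitory SMAD and itself a well-known target of TGF-β signalling, was also highest in resting Tconvs, with an 8.25-fold range of group means. Resting Tconvs held 645, 618 and 601 normalized counts and activated Tconvs 77.2, 87.1 and 61.6. Resting tTregs held 203, 231 and 264, activated tTregs 209, 148 and 227, and the 12 iTreg libraries 71.6 to 102. The tTreg libraries all lay below resting Tconvs and above activated Tconvs and iTregs.

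Skil and Ski, which bind SMADs and hold their target genes off, differed in where they were high. Skil stood at 4006, 4664 and 3428 in resting tTregs and 2483, 2388 and 2563 in activated tTregs, and at no more than 1029 in any other library. Ski stood at 934, 935 and 920 in resting Tconvs and 812, 934 and 988 in resting tTregs, which overlapped. In activated tTregs it stood at 1321, 851 and 1232, the second library lying well below the other two. The Skil to Ski ratio per kb was 3.67 ± 0.71 in resting and 1.85 ± 0.40 in activated tTregs, and 0.796 ± 0.031 and 0.888 ± 0.052 in resting and activated Tconvs.

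Per kb of the longest coding transcript, the order of the genes changed between cells. In resting tTregs Skil led with 600 normalized counts per kb and Tgfbr3 came last with 26.0. In resting Tconvs Tgfbr2 (300) and Smad4 (255) led and Tgfb1 (23.3) came last. In resting iTregs the range was narrower, from 92.6 (Tgfbr1) to 18.0 (Smad7), with Tgfbr3 and Smad2 next to Tgfbr1 at 90.5 and 90.1.

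**Figure D2:**
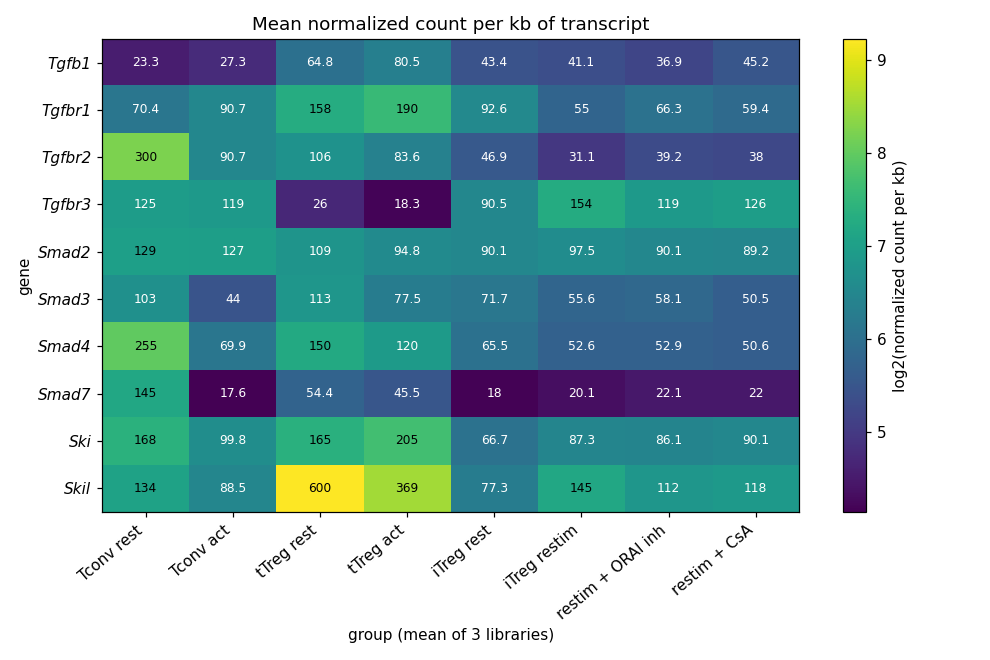
Mean normalized count per kb of the longest coding transcript (numbers in cells; colour is the log2 of that value) for the 10 genes (rows) in the 8 groups (columns, n = 3 each). Skil in resting tTregs has the highest value, 600, and Smad7 in activated Tconvs the lowest, 17.6.

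To ask how activation changed these mRNAs in Tconvs, activated and resting Tconvs were compared. Activated Tconvs had less mRNA of 6 genes of the chain: Smad7, Smad4, Tgfbr2, Smad3, Ski and Skil were lower, and no gene of the 10 was called higher. Smad7 fell by 3.04 on the log2 scale (SE 0.17), or 8.24-fold, which was the largest of these changes. Smad4 fell by 1.86 (SE 0.11), Tgfbr2 by 1.72 (SE 0.086) and Smad3 by 1.23 (SE 0.087). Ski fell by 0.75 (SE 0.13) and Skil by 0.60 (SE 0.10). In all 6 the resting and activated libraries did not overlap. Here and below, the share of all genes whose libraries did not overlap was not counted, so non-overlap is given as a description only.

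The remaining 4 genes kept closer to their resting level. Tgfbr1 was 0.37 higher (SE 0.097, adjusted p = 0.00414 by limma), under the fold threshold, with all activated libraries above the resting ones. Smad2 differed by −0.02 with a 95% interval from −0.23 to 0.19, Tgfbr3 by −0.07 (−0.43 to 0.29) and Tgfb1 by 0.25 (−0.15 to 0.64). The adjusted p-values of the 6 called genes, from limma, ran from 2.97e-10 (Tgfbr2) to 1.58e-04 (Skil). Genes were called at an adjusted p below 0.05 and a log2 difference beyond 0.5, and of the 11495 genes tested 50.2% were called in this comparison, 2958 of them lower.

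In tTregs activation moved the genes less. Skil fell by 0.69 (SE 0.10) and Smad3 by 0.54 (SE 0.087), with libraries that did not overlap. Tgfbr3 was also called, at −0.51 (SE 0.17, adjusted p = 0.0298 by limma), but its libraries overlapped, and without activated replicate 2, which held 80.4, the difference was −0.29 (adjusted p = 0.111 by limma). Without resting replicate 2 it was −0.35 (adjusted p = 0.135 by limma). The 3 calls of 10 stand against 21.9% of all genes called.

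The other genes that fell in Tconvs stayed under the fold threshold in tTregs, although Tgfbr2 (adjusted p = 0.00655 by limma) and Smad4 (adjusted p = 0.036 by limma) passed on the p-value and their libraries did not overlap. Tgfbr2 differed by −0.35 (95% interval −0.53 to −0.16), Smad4 by −0.32 (−0.56 to −0.085), Smad7 by −0.27 (−0.63 to 0.083) and Ski by 0.29 (0.014 to 0.58). The difference between the responses was tested directly as an interaction. The Tconv response was lower by 2.77 (SE 0.24) for Smad7, 1.54 (SE 0.16) for Smad4, 1.38 (SE 0.12) for Tgfbr2, 1.05 (SE 0.19) for Ski and 0.69 (SE 0.12) for Smad3. Their adjusted p-values by limma ran from 4.81e-07 (Smad7) to 4.82e-04 (Smad3), and 34.7% of all genes were called for this difference. For Skil the responses differed by 0.09 (95% interval −0.22 to 0.41), for Tgfbr1 by 0.09 (−0.20 to 0.39) and for Smad2 by 0.18 (−0.12 to 0.48).

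**Figure D3:**
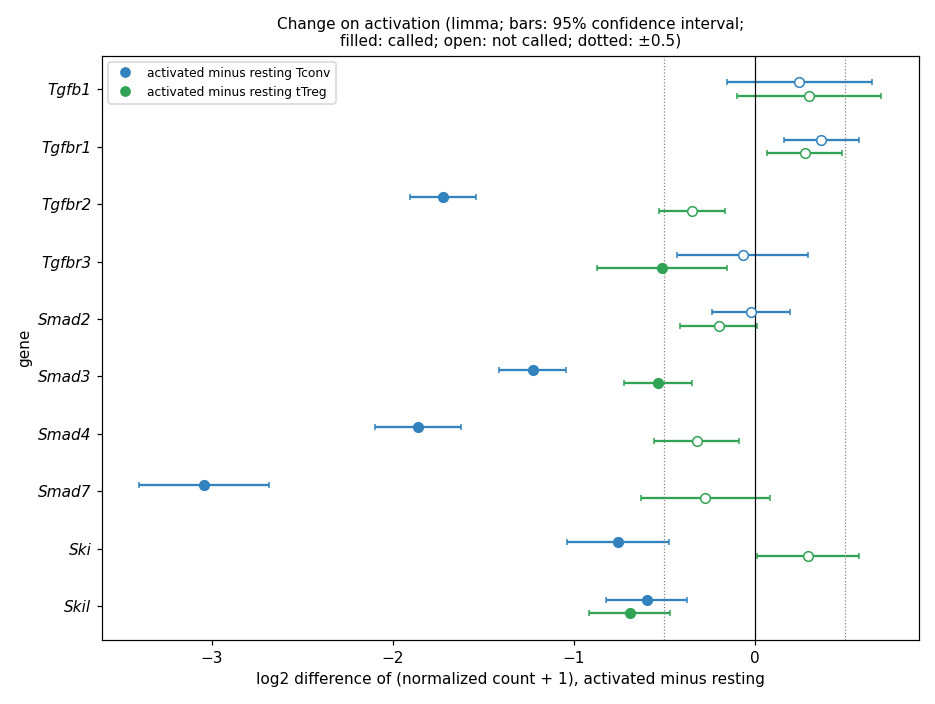
Log2 difference of activated minus resting cells (x axis) for the 10 genes (y axis) in Tconvs (blue) and tTregs (green); bars are 95% confidence intervals and filled points were called. Smad7, Smad4, Tgfbr2 and Smad3 lie at −3.04 to −1.23 in Tconvs and at −0.54 to −0.27 in tTregs.

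The comparison of resting tTregs with resting Tconvs asked which parts of the pathway differ between the lineages before stimulation. tTregs had more Skil, ligand and type I receptor mRNA and less of the type II receptor, betaglycan, Smad7 and Smad4. Skil was higher by 2.15 (SE 0.10), or 4.45-fold, Tgfb1 by 1.48 (SE 0.19) and Tgfbr1 by 1.16 (SE 0.097). Tgfbr3 was lower by 2.27 on the log2 scale, at −2.27 (SE 0.17), Tgfbr2 at −1.50 (SE 0.086), Smad7 at −1.42 (SE 0.17) and Smad4 at −0.76 (SE 0.11). All 7 had libraries that did not overlap, and adjusted p-values by limma were at most 3.95e-05 (Smad4). Ski differed by −0.03 (95% interval −0.31 to 0.25) and Smad3 by 0.13 (−0.059 to 0.31). Smad2 stood at −0.25 (SE 0.10, adjusted p = 0.0459 by limma), under the fold threshold. The background was 38.6% of genes called.

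After activation the lineages differed in another way, since the Tconv levels had dropped. Activated tTregs were higher than activated Tconvs in 7 genes: Skil at 2.06 (SE 0.10), Tgfb1 at 1.54 (SE 0.19), Smad7 at 1.35 (SE 0.17), Tgfbr1 at 1.07 (SE 0.097), Ski at 1.02 (SE 0.13), Smad3 at 0.82 (SE 0.087) and Smad4 at 0.78 (SE 0.11). Smad7 and Smad4 therefore stood lower in tTregs than in Tconvs at rest and higher after activation. Tgfbr3 remained lower, at −2.72 (SE 0.17). Tgfbr2 differed by −0.12 (95% interval −0.30 to 0.061) and overlapped between the cells. All 8 called genes were apart in every library, beside 48.2% of genes called.

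Resting iTregs were then set against resting Tconvs. iTregs had less mRNA of the type II receptor, the 4 SMADs and both repressors: Smad7 was lower at −3.0 (SE 0.17), Tgfbr2 at −2.68 (SE 0.086), Smad4 at −1.97 (SE 0.11), Ski at −1.33 (SE 0.13) and Skil at −0.80 (SE 0.10). Smad3 (−0.52, SE 0.087) and Smad2 (−0.52, SE 0.10) were close to the fold threshold. Without 1 library Smad3 came to −0.47 (iTreg replicate 1), and Smad2 to −0.47 (iTreg replicate 2) or −0.49 (Tconv replicate 3), under it. Tgfb1 was higher by 0.89 (SE 0.19). Tgfbr1 (0.40, SE 0.097) and Tgfbr3 (−0.46, SE 0.17) stayed under the fold threshold. These 8 calls have a background of 63.6% of genes called.

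Against activated Tconvs resting iTregs differed less, and the share of all genes called was also lower, at 41.6% against 63.6%. Both cells had been stimulated, and the reason for the smaller difference was not tested. Smad7 differed by 0.05 (95% interval −0.31 to 0.40), Smad4 by −0.11 (−0.34 to 0.13), Tgfbr1 by 0.03 (−0.18 to 0.24) and Skil by −0.20 (−0.42 to 0.026). Tgfbr2 was still lower, at −0.95 (SE 0.086), and Ski at −0.58 (SE 0.13). Smad3 was higher by 0.70 (SE 0.087) and Tgfb1 by 0.65 (SE 0.19), the latter with an adjusted p of 0.00848 by limma and overlap in no library. With quantile normalization, which moved the median of all genes, Tgfb1 came to 0.40 (adjusted p = 0.0854 by limma). Smad2 lay at the threshold itself, at −0.50 (SE 0.10), and was not called. The 4 calls of 10 stand beside 41.6% of all genes.

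Compared with resting tTregs, resting iTregs were lower in 8 of the 10 genes and higher in 1. Skil was lower by 2.95 on the log2 scale, at −2.95 (SE 0.10), or 7.72-fold. Smad7 stood at −1.58 (SE 0.17), Ski at −1.30 (SE 0.13), Smad4 at −1.20 (SE 0.11), Tgfbr2 at −1.18 (SE 0.086), Tgfbr1 at −0.77 (SE 0.097), Smad3 at −0.65 (SE 0.087) and Tgfb1 at −0.59 (SE 0.19). Tgfbr3 was higher by 1.81 (SE 0.17). The Tgfb1 call rests on its iTreg replicate 3: without it the difference was −0.45 (adjusted p = 0.0545 by limma). The background was 63.4%, so a count of 9 of 10 is to be read beside a comparison in which most genes were called. The resting groups are shared between these comparisons, so they are not independent.

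**Figure D4:**
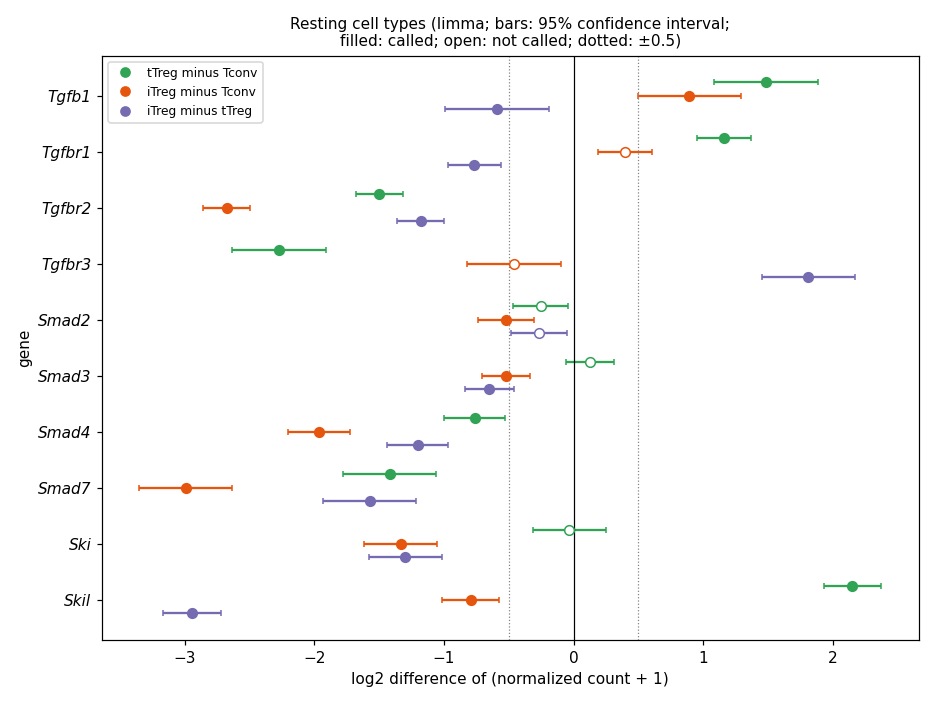
Log2 difference between resting cell types (x axis) for the 10 genes (y axis): tTreg minus Tconv (green), iTreg minus Tconv (orange) and iTreg minus tTreg (violet), with 95% confidence intervals and filled points for called genes. Skil lies at 2.15 in tTregs against Tconvs and at −2.95 in iTregs against tTregs.

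Restimulation of iTregs, the setting in which the study followed loss of the Treg state, changed the receptors and Skil. Both signalling receptors fell, Tgfbr1 by 0.75 on the log2 scale (SE 0.10) and Tgfbr2 by 0.59 (SE 0.087), while the co-receptor Tgfbr3 rose by 0.76 (SE 0.068). Skil rose by 0.91 (SE 0.078), or 1.88-fold, from 514, 469 and 575 to 1029, 923 and 975. For all 4 the resting and restimulated libraries were apart, with adjusted p-values by limma from 6.76e-07 (Skil) to 1.41e-04 (Tgfbr2). The 4 calls of 10 stand beside 12.8% of 11105 genes called.

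No SMAD gene was called on restimulation. Smad2 differed by 0.11 (95% interval −0.047 to 0.27), Smad7 by 0.15 (−0.12 to 0.43) and Smad4 by −0.30 (−0.61 to 0.0014). Smad3 was at −0.38 (SE 0.12, adjusted p = 0.0254 by limma) and Ski at 0.38 (SE 0.084, adjusted p = 0.00325 by limma), both under the fold threshold but with libraries apart. Tgfb1 differed by −0.06 (−0.36 to 0.23).

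The inhibitors asked how much of these changes depends on store-operated calcium entry and calcineurin. With the ORAI inhibitor Tgfbr3 stood at 685, 742 and 748, against 886, 944 and 974 without it, and Skil at 790, 714 and 755, against 1029, 923 and 975. Tgfbr2 stood at 302, 306 and 343, against 235, 254 and 265. Each of these 3 genes thus lay between its resting and its restimulated level, with no overlap with the restimulated libraries.

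The differences were −0.37 for Tgfbr3 (SE 0.068, adjusted p = 0.00343 by limma), −0.37 for Skil (SE 0.078, adjusted p = 0.0076 by limma) and 0.33 for Tgfbr2 (SE 0.087, adjusted p = 0.0291 by limma). None reached the fold threshold, so 0 of the 10 genes were called with limma, with edgeR or with DESeq2, where 3.3% of all genes were called. At an unadjusted p below 0.05 limma gave 4 of 10, beside 20.6% of all genes. By the adjusted p alone, a rule added after the data were seen, limma gave 3 of 10 beside 7.83% of all genes. With edgeR and DESeq2 that rule gave 3 each, and the share of all genes was not counted. Tgfbr1 differed by 0.27 (95% interval 0.046 to 0.49) with an adjusted p of 0.148 by limma, and its libraries overlapped.

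CsA gave smaller differences in the same genes. Tgfbr3 stood at 732, 771 and 796 and Skil at 815, 809 and 764, all below the restimulated libraries, at −0.29 (SE 0.068, adjusted p = 0.018 by limma) and −0.29 (SE 0.078, adjusted p = 0.0313 by limma). Tgfbr2 stood at 299, 306 and 317, all above them, at 0.29 (SE 0.087, adjusted p = 0.0539 by limma). Tgfbr1 stood at 366, 344 and 316, against 300, 359 and 292 after restimulation alone, and these libraries overlapped. Again 0 of 10 genes were called by limma, edgeR or DESeq2, beside 2.92% of all genes. At an unadjusted p below 0.05 limma gave 3 of 10, beside 22.8% of all genes. By the adjusted p alone limma gave 2 of 10, beside 8.51% of all genes. With edgeR and DESeq2 that rule gave 2 each, and the share of all genes was not counted. The effects of both inhibitors share the restimulated libraries.

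Between the inhibitors 0 of 10 genes were called by limma, edgeR or DESeq2, beside 0.36% of all genes, and 0 had an unadjusted p below 0.05, beside 11.2% of all genes. The 95% interval of the ORAI inhibitor minus CsA was −0.23 to 0.065 for Tgfbr3, −0.25 to 0.086 for Skil, −0.14 to 0.23 for Tgfbr2 and −0.068 to 0.38 for Tgfbr1, so differences within these bounds may exist. Doses of the compounds are not given in the sources used here.

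To see how far each inhibitor left the cells from rest, inhibitor-treated iTregs were also set against resting iTregs, a comparison added after the data were seen. Under the ORAI inhibitor Skil was still higher by 0.54 (SE 0.078, adjusted p = 2.4e-04 by limma), the only call of the 10, beside 7.1% of all genes. Tgfbr1 stood at −0.48 (SE 0.10, adjusted p = 0.00482 by limma) and Tgfbr3 at 0.40 (SE 0.068, adjusted p = 9.48e-04 by limma). Leaving out 1 library gave 0 to 2 calls: without iTreg rest replicate 2 Skil came to 0.47, and without iTreg rest replicate 1 or ORAI inhibitor replicate 2 Tgfbr1 came to −0.54 or −0.56. The share of all genes called was not counted for these runs.

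Under CsA Skil was higher by 0.62 (SE 0.078), and Tgfbr1 (−0.64, SE 0.10) and Smad3 (−0.51, SE 0.12) were lower, 3 calls beside 9.43% of all genes. Smad3 fell under the fold threshold without resting replicate 2 (−0.48), resting replicate 3 (−0.48) or CsA replicate 3 (−0.41). Skil thus stayed above its resting level in all libraries under both compounds.

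**Figure D5:**
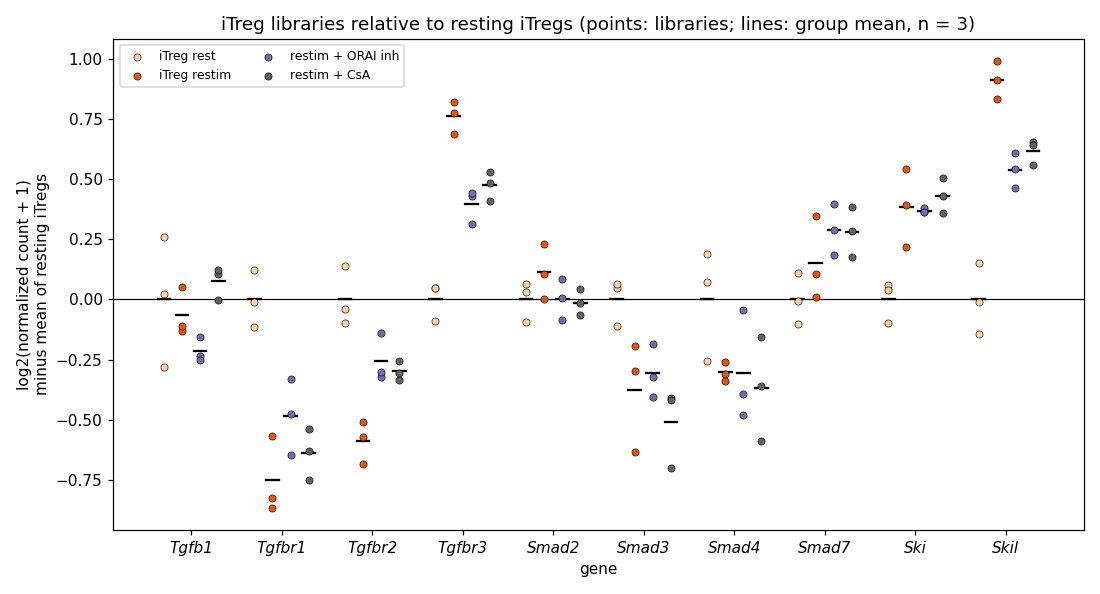
Log2(normalized count + 1) of each iTreg library minus the mean of resting iTregs (y axis) for the 10 genes (x axis); points are libraries and lines group means (n = 3). The restimulated means lie at −0.75 for Tgfbr1, −0.59 for Tgfbr2, 0.76 for Tgfbr3 and 0.91 for Skil, and the inhibitor means of these 4 genes lie closer to 0. For Tgfbr1 the libraries of both inhibitors overlap the restimulated ones.

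Other genes of the pathway were read from 6 lists of 65 genes: ligands and latency, BMP and activin receptors, other SMADs, SMAD regulators, coactivators and kinases, and genes raised by TGF-β in T cells. In resting tTregs against Tconvs 21 of 54 tested were higher and 5 lower, 26 called in all, beside 38.6% of all genes called in this comparison. The ligand and latency list had 6 of 9 tested genes higher and none lower. Lrrc32 (GARP, which tethers latent TGF-β to the Treg surface) stood at 6194 ± 935 against 7.40 ± 3.4 normalized counts, a log2 difference of 9.59 (SE 0.22). Itgb8, a chain of the integrin that releases active TGF-β, stood at 810 ± 126 against 9.79 ± 5.5, a difference of 6.34 (SE 0.29). Of the 6 tested genes raised by TGF-β, 5 were higher, Foxp3 among them, by which these cells were sorted. In resting iTregs Lrrc32 stood at 1471 ± 216, above Tconvs, while Itgb8 stood at 6.89 ± 1.5, in the range of resting Tconvs. The endoglin co-receptor Eng was lower in resting tTregs than in Tconvs, at 2.94 ± 2.4 against 44.9 ± 2.8, and stood at 99.9 ± 1.7 in resting iTregs.

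On activation of Tconvs 25 of 54 pathway genes were lower and 7 higher, beside 50.2% of all genes called, 2958 of them lower and 2816 higher, with a median log2 difference of −0.50 against −0.04 over all genes tested. Of the SMAD regulators 11 of 20 were lower and 2 higher, and of the BMP and activin receptors 6 of 9 were lower and none higher. Tgif1, a corepressor of SMADs, went from 1468 ± 64 to 365 ± 8.0 (log2 difference −2.01, SE 0.11), and Ldlrad4, an inhibitor of TGF-β signalling, from 285 ± 15 to 49.0 ± 14 (−2.55, SE 0.17). Lrrc32 rose by 3.51 (SE 0.22) and Pmepa1, another feedback inhibitor of TGF-β signalling, by 2.44 (SE 0.21). In tTregs 9 of 54 were lower and 2 higher, beside 21.9% of all genes called, with a median of −0.16 against 0 over all genes tested.

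In resting iTregs against Tconvs 19 of 54 pathway genes were higher and 20 lower, beside 63.6% of all genes called. Against tTregs 12 were higher and 28 lower, beside 63.4%. Of the SMAD regulators 15 of 20 and 13 of 20 were called, shares not far from those over all genes, with 12 and 11 of them lower. Tgif1 stood at 116 ± 13, against 1468 ± 64 in resting Tconvs. Nrp1, a co-receptor that marks tTregs and binds latent TGF-β, stood at 320 ± 38 against 3964 ± 314 in resting tTregs.

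Restimulation of iTregs raised 7 of 53 pathway genes and lowered 8, beside 12.8% of all genes called. Tgfb3, another TGF-β ligand, rose from 15.0 ± 2.3 to 68.8 ± 6.4 normalized counts (log2 difference 2.13, SE 0.19) and Pmepa1 from 234 ± 32 to 469 ± 32 (1.00, SE 0.11). Id3, an inhibitor of E proteins, fell from 626 ± 70 to 119 ± 5.4 (−2.38, SE 0.11), Nrros, which anchors latent TGF-β, from 470 ± 32 to 195 ± 28 (−1.27, SE 0.11), and Nrp1 from 320 ± 38 to 143 ± 3.7 (−1.15, SE 0.11). Tgfb3 and Pmepa1 thus rose while the receptors Tgfbr1 and Tgfbr2 fell.

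With the ORAI inhibitor 2 of 53 pathway genes were higher and 2 lower than after restimulation alone, beside 3.3% of all genes called, and with CsA 4 were higher and 1 lower, beside 2.92%. Id3 stood at 278 ± 30 with the ORAI inhibitor (log2 difference 1.21, SE 0.11) and at 199 ± 17 with CsA (0.73, SE 0.11), and Lrrc32 at 1273 ± 60 (0.74, SE 0.10) and 1254 ± 115 (0.71, SE 0.10), against 766 ± 79 after restimulation alone. The means of both genes lay between their resting and restimulated means under both inhibitors. For Lrrc32 the libraries reached 1324 with the ORAI inhibitor and 1348 with CsA. Both overlapped the resting libraries, the lowest of which held 1316.

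By position in GENCODE M21 (GRCm38), Tgfb1 lies on chromosome 7 (25687002 to 25705077), Tgfbr1 on 4 (47353222 to 47414931), Tgfbr2 on 9 (116084293 to 116175360), Tgfbr3 on 5 (107106570 to 107289629), Smad3 on 9 (63646767 to 63757994), Ski on 4 (155154075 to 155222592) and Skil on 3 (31095058 to 31122577). Smad2 (76241580 to 76310963), Smad4 (73639009 to 73703780) and Smad7 (75367529 to 75395935) lie on chromosome 18. The exons of 9 of the genes share no base with another gene, and 4.54% of the exon bases of Tgfbr3 overlap Gm43422 on the same strand. The reads were not counted by strand.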

How the data were processed

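RNA was measured with a modified SMART-seq2 protocol (oligo-dT primed, fragmented with Tn5, no strand kept). Per the labels and the study's methods, the authors trimmed reads with cutadapt 1.18, aligned them with STAR 2.5.3 to GRCm38 (mm10), counted them per gene with RSEM 1.3.0 and GENCODE M23, and normalized with DESeq2 1.26. The deposited values are a signal: read counts divided by 1 size factor per library. In each library all values (100%) were whole multiples of the value of 1 read, within 0.01 read, so reads were recovered for the alternatives. The columns not used numbered 0. The ATAC-seq and CUT&Tag samples were not analysed here.

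Genes reaching 10 normalized counts in 3 or more libraries were tested with limma 3.58.1 (R 4.3.3) on log2(normalized count + 1), with trend, in 1 fit of 15 libraries (Tconv, tTreg, resting iTreg; 11495 genes) and 1 fit of 12 iTreg libraries (11105 genes). Fold changes are on that scale. Adjusted p-values are Benjamini-Hochberg over all genes tested, and calls need adjusted p below 0.05 and a log2 difference beyond 0.5. edgeR 4.0.16 and DESeq2 1.42.0 on recovered reads were alternatives, beside other scalings, pseudocounts (0.1 and 5), filters, single fits of the groups compared, the replicate block and leaving out each library. The comparisons of inhibitor-treated with resting iTregs, and calls by adjusted p alone, were added after the data were seen. Tested on simulated data of the first design, 194 of 200 changed genes were recovered with 3 false calls. The planted changes were well beyond the 0.5 threshold, and the simulated spread was set the same for all genes and groups. The recovery therefore does not apply to calls near the threshold or to groups with more spread. Lengths are of the longest coding transcript in GENCODE M21.

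The members and lists were chosen with earlier results of these data known. Named pathway genes were, per comparison, up to 3 with the largest rise and fall among those called with libraries that did not overlap. Some genes that met this rule are not reported here. Labels do not say whether replicates came from separate animals or cultures, so p-values measure only the spread between these samples, which may be technical. Replicate libraries differed beyond counting noise, with a chi-square of 2.69 to 36.3 per degree of freedom. It was 12.7 to 36.3 in tTregs, 3.01 to 9.36 in Tconvs and 2.69 to 16.4 in iTregs. Depth was 5256800 to 9893053 reads in tTregs, 10126877 to 15685234 in Tconvs and 9808711 to 14103874 in iTregs. The first fit shares 1 estimate of the spread over its 15 libraries, tTregs included. A fit of the tTreg groups only called 1707 of 10814 genes on tTreg activation, against 2517 of 11495.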

Additional observations from a re-analysis of the deposited data

Results flagged for a closer look

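5 of the 10 genes had an activation response that differed between Tconvs and tTregs in the interaction test, beside 34.7% of all genes called for that difference. The response of Tconvs minus that of tTregs, on the log2 scale, was −2.77 for Smad7, −1.54 for Smad4, −1.38 for Tgfbr2, −1.05 for Ski and −0.69 for Smad3. For Smad7, Smad4 and Tgfbr2 all activated Tconv libraries lay below all resting Tconv libraries, while for Smad7 the tTreg libraries overlapped. Each group had 3 libraries. Leaving out each library in turn changed none of these 5 calls, and no other test for a single outlying library was run.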

How the results depend on the processing

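The counts of called genes kept within 1.5 times of their main value under every alternative run for the 12 planned comparisons, other than the rule of adjusted p alone, and no called difference changed direction. That rule, added after the data were seen, gave 3 genes for the ORAI inhibitor and 2 for CsA in place of 0, beside 7.83% and 8.51% of all genes. Leaving out 1 library at a time gave 0 to 2 calls for the ORAI inhibitor against resting iTregs, with the share of all genes not counted. Of the single-gene values under alternatives, 2404 kept their side of the threshold, 15 passed it newly and 15 no longer passed it. Among the changes not named in the report, Smad2 in iTregs against activated Tconvs (−0.50) passed it with edgeR and DESeq2 (−0.52 each). It also passed with size factors of the fit's libraries (−0.52), quantile normalization (−0.54) and a pseudocount of 0.1 (−0.50). Without iTreg replicate 1 (−0.53) or 3 (−0.52), or activated Tconv replicate 1 (−0.50) or 3 (−0.51), Smad2 passed too. Tgfbr3 in iTregs against resting Tconvs passed it with quantile normalization (−0.52). Smad2 in activated tTregs against activated Tconvs passed it without tTreg replicate 2 (−0.54), and Tgfbr3 under CsA against resting iTregs passed it with quantile normalization or without CsA replicate 1 (0.51 each). Tgfbr3 on tTreg activation missed it with quantile normalization (−0.50), a pseudocount of 5 (−0.50) or a fit of those groups only (adjusted p = 0.167 by limma); the causes were not tested. Quantile normalization moved the median of all genes to −0.12 in iTregs against resting Tconvs, from 0.016. A filter of 100 normalized counts left Smad7 out of the iTreg fit, so it has no value there.

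Replicate numbers share only a number in the labels, and no comparison had every same-numbered correlation over 0.1. These correlations ran from −0.425 to −0.129 in tTreg activation and 0.034 to 0.083 in Tconv activation, and in the iTreg libraries from 0.045 to 0.239 for restimulation, 0.056 to 0.286 for the ORAI inhibitor and 0.099 to 0.302 for CsA, where the other pairs had negative means. With the replicate block the calls were 6 for Tconv activation, beside 5742 of all 11495 genes, and 3 for tTreg activation, beside 2455 of 11495. For restimulation they were 4, beside 1500 of 11105. The block changed no call of the 10 genes. The depth limits Tgfb1 most, with 44 reads in its lowest library.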

Other observations

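Genes whose levels followed 9 of the 10 genes most closely over the 24 libraries, by Pearson correlation of log2 values among 11725 genes, are given as a description; the points share groups of 3 libraries, and Smad2 was left out because its group means differed by less than 2-fold. Selenop, which encodes a selenium carrier, and Tent5c followed Tgfbr2 at r = 0.988 and 0.986, with Selenop at 25864 ± 569 normalized counts in resting Tconvs and 666 ± 47 in restimulated iTregs. Klrk1, the activating receptor NKG2D, followed Tgfbr3 at 0.970, Kdm5a, a histone demethylase, followed Smad4 at 0.978, and Dennd4a followed Skil at 0.975. Ercc4 followed Ski at 0.974, Pglyrp1 followed Tgfbr1 at 0.966, Patl2 followed Smad7 at 0.960, Plec followed Tgfb1 at 0.956 and Tespa1 followed Smad3 at 0.937.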
